A study of Homo sapiens with 12 samples.

Results

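The Hippo kinase core and its upstream regulators were followed at the transcript level as 10 genes, chosen by name and found by Ensembl identifier among the 20345 rows of the expression table. The kinases are STK3, STK4, TAOK1, LATS1 and LATS2, the adaptors are SAV1, MOB1A and MOB1B, and the scaffolds are NF2 and WWC1. All 10 were found, and all 10 were among the 11225 rows tested, those that averaged 1 FPKM or more across the 12 libraries.

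RNA-seq was carried out on HGC-27, an established human gastric cancer cell line, in 4 groups of 3 libraries. WT cells, for which no edit is given, were sequenced untreated (replicates 1, 2 and 3) and after GLUP (replicates 14, 15 and 16), and cells labelled TEAD4KO were sequenced in the same manner with the same replicate numbers. GLUP is a cyclised peptide designed to bind TEAD4 and hold TEAD4 molecules together. All cells grew in the same serum-containing medium. The clone and the edited site of the knockout are not given in the sources used here, and nothing in the labels says whether the 3 libraries of a group came from separate cultures, so p-values measure the spread between these libraries, which may be technical.

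In the Hippo pathway, STK3 and STK4 bind the adaptor SAV1 and phosphorylate the kinases LATS1 and LATS2 together with their co-activators MOB1A and MOB1B. TAOK1 can activate STK3 and STK4, while NF2 (merlin) and WWC1 (KIBRA) bring the kinases together at the cell cortex. Active LATS1 and LATS2 phosphorylate the co-activators YAP and TAZ, which keeps them in the cytoplasm and away from the TEAD transcription factors. LATS2 is in turn known as a target gene of YAP and TEAD, a feedback loop onto the pathway.

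Because of that loop, the promoters of the members were searched for the core TEAD motif CATTCC, read on both strands (GGAATG on the other). RefSeq windows of 300 bases on GRCh38.p14 ran from 250 bases before to 50 after each annotated start. They were searched for 9 members in 13 windows, and STK3 was not searched. The motif occurred in 1 of these 13 windows, that of LATS2, and in 14.03% of all 35116 windows. The LATS2 match lies just past the annotated start, on the opposite strand of the gene, at chr13:21061560-21061589 (GRCh38.p14, minus strand). It is shown, with the motif in capitals, as the one match among the members searched.
LATS2: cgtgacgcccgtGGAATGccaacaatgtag
A match of 6 letters is a description of the window and was not tested for binding.

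The libraries were first held against their labels. TEAD4, the gene named in the knockout, was at 22.9 to 25.8 FPKM in WT libraries. In the libraries labelled TEAD4KO it was at 26.0 to 30.1 FPKM, so its transcript was not lower under the label. This difference over both treatments did not pass after the GC and length correction given below. A transcript level does not show whether the protein was lost. The label could thus not be checked, and "labelled TEAD4KO" is used throughout. Of 9 markers chosen for a cancer cell line of epithelial origin, EPCAM, KRT18, KRT19, CLDN4 and CDH2 were under 1 FPKM in every library, MUC1 was at 7.12 to 11.4, KRT8 at 3.78 to 9.13 and CDH1 at 2.04 to 3.68 FPKM, and VIM was at 1238 to 1704 FPKM. All 6 gastric mucosa markers (MUC5AC, MUC6, TFF1, TFF2, GKN1, PGC) were under 1 FPKM. Of 9 markers chosen for other cell types, COL1A1 (155 to 304 FPKM), COL3A1 (299.6 to 359 FPKM), DCN (55.1 to 77.6 FPKM) and LUM (48.6 to 64.5 FPKM) were high. PTPRC, CD68, CD3E and VWF were under 1 FPKM in every library, and PECAM1 was matched to no row. The epithelial transcripts MUC1, KRT8 and CDH1 were thus present in every library, while EPCAM, the keratins KRT18 and KRT19 and the gastric mucosa transcripts were at or near 0. VIM, COL1A1, COL3A1, DCN and LUM were high, and no cell type is named from these markers. On the first principal component (39.7% of variance), labelled TEAD4KO untreated replicate 1 (-0.962) and labelled TEAD4KO GLUP replicate 16 (-5.26) lay near the WT libraries (-16.2 to -3.71), and the other 4 labelled TEAD4KO libraries lay at 9.91 or above.

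FPKM is scaled to transcript length, so levels can be ordered between genes. MOB1A was the most abundant member, with a mean of 41.8 FPKM over the 12 libraries, followed by SAV1 (23.3 FPKM), NF2 (15.97), TAOK1 (15.2), WWC1 (13.98), STK4 (10.7), MOB1B (7.02), LATS2 (6.97), STK3 (5.35) and LATS1 (4.81 FPKM). The ranges of neighbours were separate for MOB1A over SAV1, SAV1 over NF2, STK4 over MOB1B and LATS2 over STK3. WWC1 exceeded STK4 in all 12 libraries, though their ranges overlapped. NF2 exceeded TAOK1 in 8 of 12 libraries, TAOK1 exceeded WWC1 in 9, STK3 exceeded LATS1 in 10, and MOB1B exceeded LATS2 in 6. The ranges of these neighbours overlapped over the 12 libraries, and their order was not tested. Within labelled TEAD4KO, however, STK3 (4.95 to 5.86 FPKM) was above LATS1 (3.61 to 4.81 FPKM) in all 6 libraries. By role, the 5 kinases had means between 4.81 and 15.2 FPKM, the adaptors between 7.02 and 41.8 FPKM, and the scaffolds 13.98 and 15.97 FPKM. The adaptors MOB1A and SAV1 were above every kinase in each library, whereas MOB1B was among the low members. SAV1 shared 8.44% of its 50-base stretches with another gene and 14.2% of its exon bases with ATL1 on the opposite strand, so its level is less certain than those of STK3, LATS1 and LATS2, which shared none of their stretches.

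**Figure D1:**
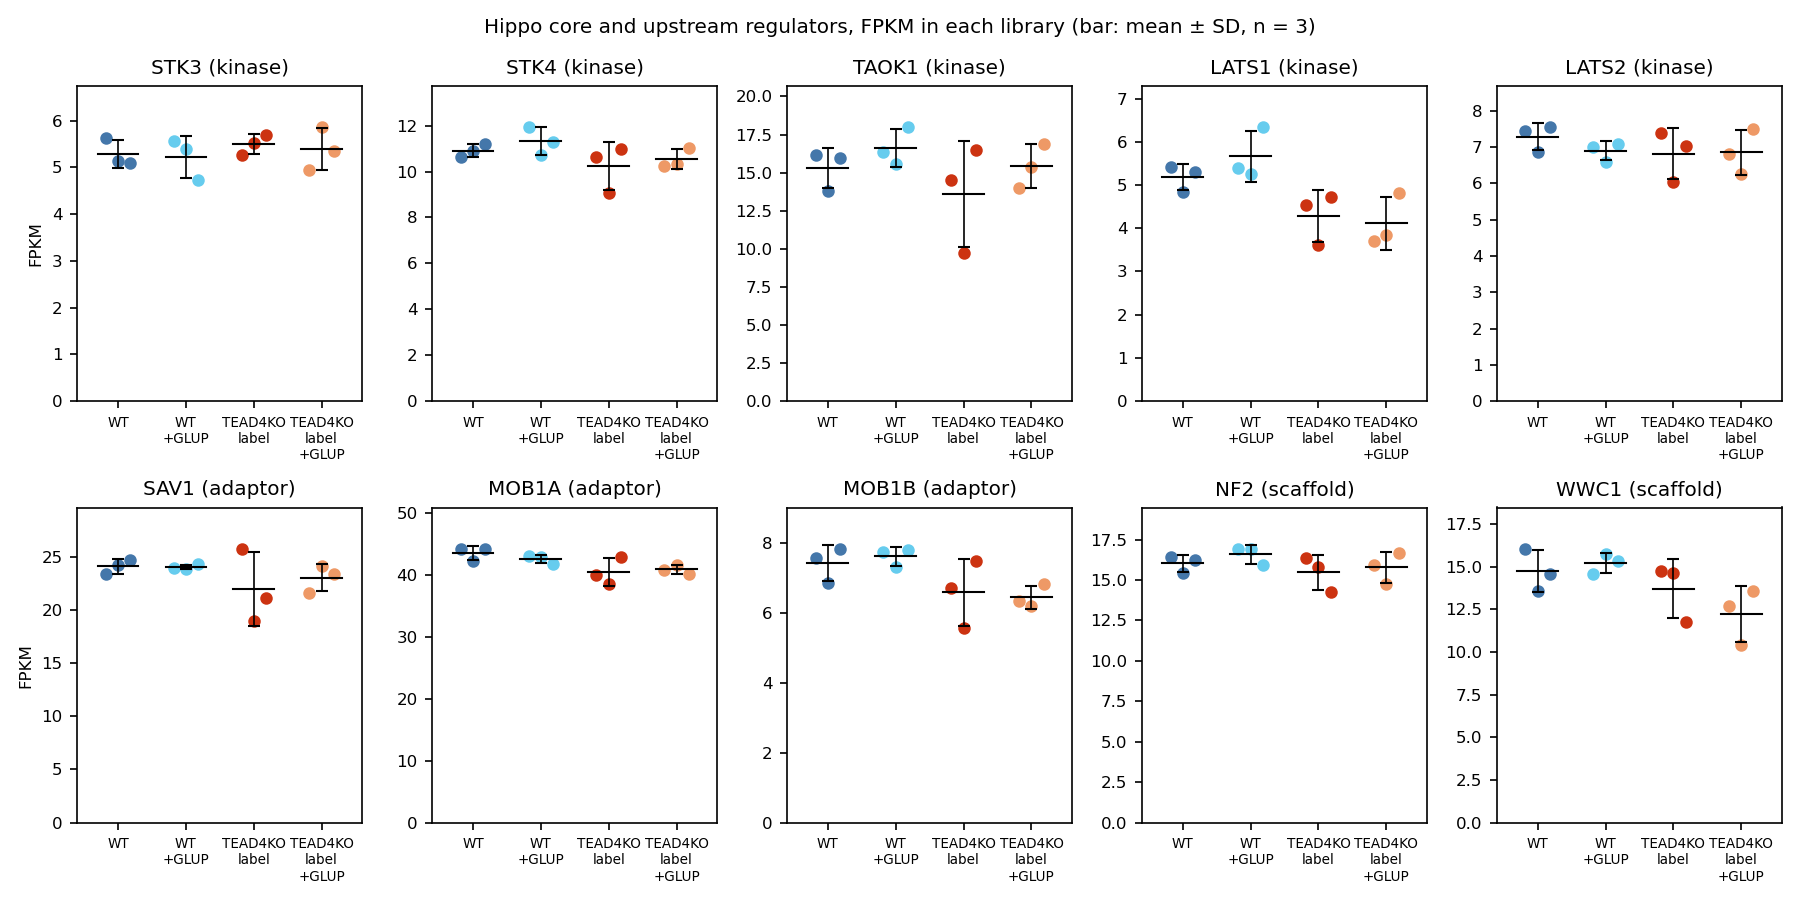
FPKM of each member (vertical axis, from 0) in the 12 libraries, 1 panel per gene with the 4 groups on the horizontal axis; points are libraries and bars are group means with SD (n = 3). LATS1 sits at 4.84 to 6.34 FPKM in WT libraries and at 3.61 to 4.81 FPKM in libraries labelled TEAD4KO, while the groups overlap for STK3, STK4, NF2 and LATS2.

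GLUP was examined first, since the question of the series is what the peptide changes and whether TEAD4 is needed. No member passed at an adjusted p under 0.05 in limma, either in WT cells or in cells labelled TEAD4KO. Over all genes tested, 0.00891% passed in WT and 0.0445% in labelled TEAD4KO, and at an unadjusted p under 0.05 the count of members was 0 in both, against 3.43% and 6.38% of all genes. In WT the fold changes on the log2(FPKM + 1) scale ran from -0.07 (LATS2) to 0.11 (TAOK1), with a median of 0.039 against 0.0088 over all genes. On this scale the change of low genes is understated. In labelled TEAD4KO they ran from -0.15 (WWC1) to 0.20 (TAOK1), with a median of 0.012 against -0.017. The WWC1 value was -0.051 without labelled TEAD4KO GLUP replicate 15 and -0.26 without labelled TEAD4KO untreated replicate 3. The 95% intervals of all 10 members stayed between -0.26 and 0.42 in WT and between -0.38 and 0.51 in labelled TEAD4KO, so smaller changes than these bounds could not be told from none.

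The kinase TAOK1 had the highest fold change with GLUP in both genotypes. Its FPKM in WT was 16.2, 13.8 and 15.97 without GLUP and 16.4, 15.6 and 18.0 with it. The labelled TEAD4KO values were 14.5, 9.72 and 16.5 without GLUP and 13.996, 15.4 and 16.9 with it. The untreated and GLUP libraries overlapped in both genotypes, and the low value of labelled TEAD4KO untreated replicate 2 (9.72 FPKM) set much of the second difference. Over both genotypes the log2 fold change was 0.16 ± 0.098 (SE, 6 libraries against 6; limma adjusted p = 0.762). Without that library the value within labelled TEAD4KO was -0.0089.

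With 6 libraries a side and genotype as a covariate, again no member passed for GLUP, by limma at an adjusted p under 0.05, against 0.303% of all genes, and the count at an unadjusted p under 0.05 was 0, against 7.54%. The fold changes ran from -0.055 (WWC1) to 0.16 (TAOK1), and the intervals from -0.22 to 0.37. The difference in GLUP effect between genotypes, the test of whether the response depends on the label, passed for no member (0.00891% of all genes), and 0 did at an unadjusted p under 0.05 (2.53% of all genes). Its most negative values were -0.20 ± 0.15 for WWC1 and -0.15 ± 0.16 for LATS1 (SE, limma adjusted p = 0.9998 for both). Without the same libraries in turn, that of WWC1 was -0.096 and -0.30. No kinase, adaptor or scaffold had GLUP libraries that all lay on 1 side of the untreated libraries in either genotype. This non-overlap was met by 10.2% (higher) and 7.16% (lower) of all genes in WT and by 2.85% and 3.98% in labelled TEAD4KO.

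**Figure D2:**
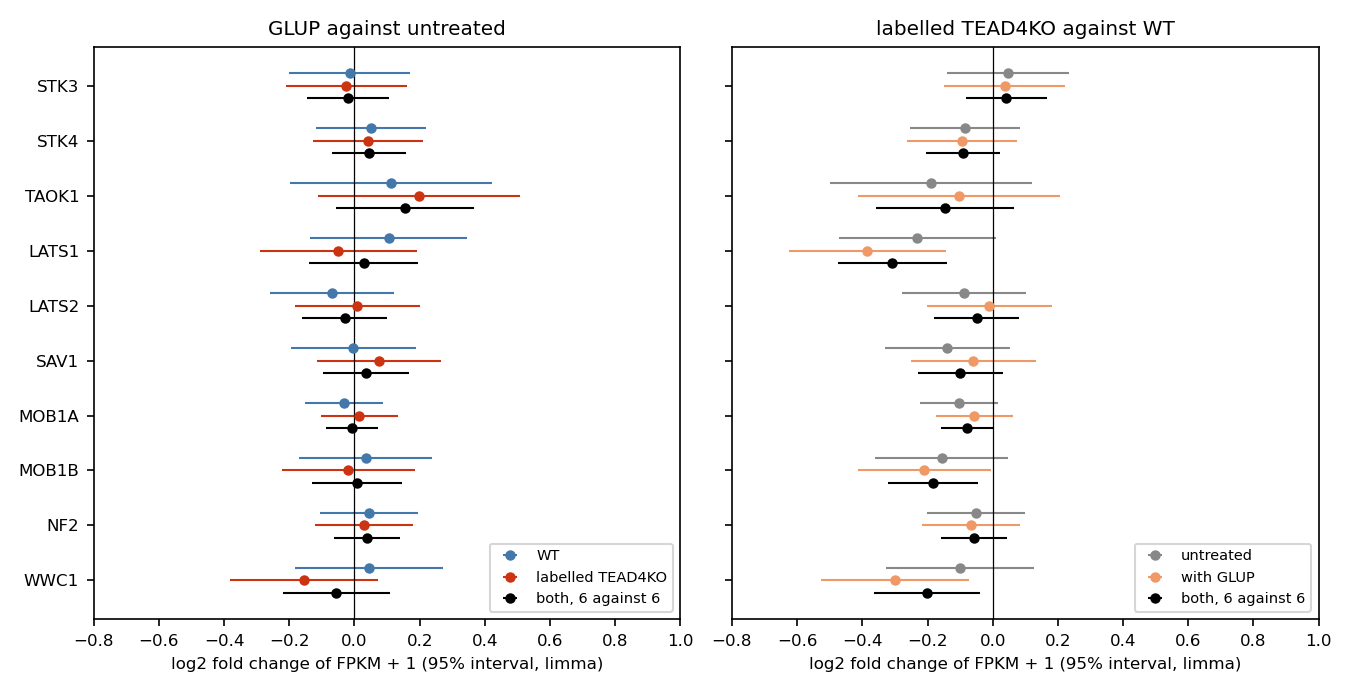
Log2 fold changes of FPKM + 1 with 95% intervals from limma (horizontal axis) for the 10 members (rows), for GLUP against untreated on the left and labelled TEAD4KO against WT on the right, within each stratum (3 libraries against 3) and over both (6 against 6). The GLUP intervals all include 0, and the LATS1 interval over both treatments runs from -0.48 to -0.14.

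The comparison of labelled TEAD4KO with WT cells asked which members differ with the genotype label. LATS1, one of the pair of kinases that phosphorylate YAP and TAZ, was the member that differed most. Its FPKM in WT was 5.42, 4.84 and 5.30 without GLUP and 5.39, 5.26 and 6.34 with it. Labelled TEAD4KO libraries gave 4.55, 3.61 and 4.72 without GLUP and 3.70, 3.84 and 4.81 with it. Every labelled TEAD4KO library lay below every WT library, by a narrow margin between 4.81 FPKM (labelled TEAD4KO GLUP replicate 16) and 4.84 FPKM (WT untreated replicate 2).

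Over both treatments LATS1 fell by 0.31 ± 0.079 on the log2(FPKM + 1) scale (SE, 6 against 6, 95% interval -0.48 to -0.14; limma with Benjamini-Hochberg adjustment over 11225 genes, adjusted p = 0.0131), a fold of 0.808. It was the 1 member of 10 to pass, in a comparison where 21.9% of all genes passed and 6.62% passed as lower, so a share of 1 in 10 is not set apart from genes at large. Its adjusted p ranged from 0.00264 to 0.0361 over the 22 alternatives in which it was tested. No member changed over 2-fold and passed, against 0.0445% of all genes. In bulk RNA, fewer cells with the transcript and less transcript per cell cannot be told apart. LATS1 (ENSG00000131023) lies on GRCh37 chromosome 6, 149979289 to 150039241, minus strand, and 3.44% of its exon bases overlap a gene on the other strand.

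Within strata the LATS1 difference did not pass. In untreated cells it was -0.23 ± 0.11 (SE, n = 3 per group; limma adjusted p = 0.25), where 5.42% of all genes passed, 0.499% as lower. Without labelled TEAD4KO untreated replicate 2, the library with the lowest LATS1, it was -0.13. With GLUP it was -0.38 ± 0.11 (SE; limma adjusted p = 0.0599), where 5.84% of all genes passed, 0.935% as lower. Over 23 alternatives its adjusted p in limma lay between 0.00767 and 0.241. The main model paired no libraries. Blocking on replicate number, run as an alternative, brought the same difference past the threshold (limma adjusted p = 0.024). Together with the GC and length correction, the difference did not pass (limma adjusted p = 0.0529). It also passed in the fits without labelled TEAD4KO GLUP replicate 16 (-0.48, adjusted p = 0.0148) and without labelled TEAD4KO untreated replicate 1 (adjusted p = 0.0481) or 2 (adjusted p = 0.0365), which enter through the shared estimate of spread. These strata share no library, and whether they differ is the interaction above, which did not pass.

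LATS2, the paralog of LATS1 (ENSG00000150457, GRCh37 chromosome 13, 21547175 to 21635725, minus strand), did not pass in any comparison. WT libraries gave 7.46, 6.87 and 7.55 FPKM without GLUP and 7.01, 6.60 and 7.10 with it. Labelled TEAD4KO libraries gave 7.39, 6.03 and 7.03 FPKM without GLUP and 6.83, 6.26 and 7.50 with it. The groups overlapped throughout, and over both treatments the log2 fold change was -0.049 ± 0.061 (SE, 95% interval -0.18 to 0.081; limma adjusted p = 0.59). After the GC and length correction given with transcript length, its sign was positive (0.031).

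The pair was therefore compared within each library, as the share of LATS2 in the summed FPKM of LATS1 and LATS2. The share was 58.4% ± 0.479 in untreated WT, 55.0% ± 1.93 in WT with GLUP, 61.4% ± 1.43 in untreated labelled TEAD4KO and 62.6% ± 2.05 in labelled TEAD4KO with GLUP (SD, n = 3 each). All 6 labelled TEAD4KO libraries (59.8 to 64.9%) lay above all 6 WT libraries (52.8 to 58.8%). The difference was 5.29 percentage points (two-sided exact permutation test within treatment, p = 0.005, the smallest that 400 arrangements can give; Benjamini-Hochberg adjusted p = 0.03 over 6 share tests). After the GC and length correction it was 5.01 points with the same exact permutation p. Since the share is built from the LATS1 values, it is not separate evidence of the LATS1 difference.

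The shares of the other paralog pairs moved less. STK4 made up 65.0 to 68.4% of the summed STK4 and STK3 FPKM by group mean, and the labelled TEAD4KO libraries were 2.29 points lower (difference -2.29; exact permutation p = 0.08, adjusted p = 0.16), which became -0.51 points after the correction (exact permutation p = 0.535). MOB1B made up 13.6 to 15.2% of MOB1B and MOB1A, with a difference of -1.08 points (exact permutation p = 0.06, adjusted p = 0.16). GLUP moved the 3 shares by 1.14 (STK4), -1.15 (LATS2) and 0.162 points (MOB1B), with exact permutation p from 0.34 to 0.725. For LATS2 this pools opposite directions: in WT all GLUP libraries (52.8 to 56.5%) lay below all untreated ones (57.9 to 58.8%), while in labelled TEAD4KO the libraries overlapped and the GLUP mean was the higher. The share was not tested within a genotype, where an exact test of 3 against 3 cannot go below p = 0.1.

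**Figure D3:**
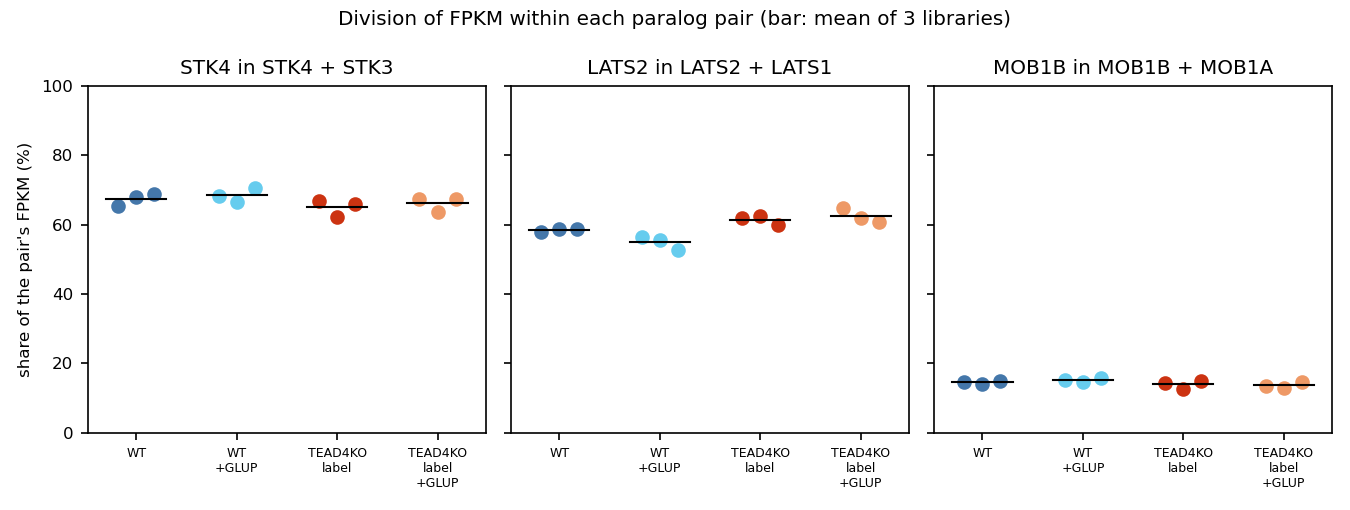
Share (%) of STK4, LATS2 and MOB1B in the summed FPKM of each paralog pair, 1 panel per pair, with the 4 groups on the horizontal axis; points are libraries and bars are means of 3. The LATS2 share is 59.8% or higher in libraries labelled TEAD4KO and 58.8% or lower in WT libraries.

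Among the adaptors, MOB1B, a co-activator of LATS1 and LATS2 (ENSG00000173542, GRCh37 chromosome 4, 71768043 to 71888166, plus strand), came nearest to the threshold. Its WT values were 7.57, 6.85 and 7.83 FPKM without GLUP and 7.74, 7.31 and 7.79 with it. Its labelled TEAD4KO values were 6.71, 5.57 and 7.48 FPKM without GLUP and 6.35, 6.18 and 6.82 with it. The groups overlapped untreated and were separate with GLUP. Over both treatments the log2 fold change was -0.18 ± 0.064 (SE, limma adjusted p = 0.0559), with adjusted p from 0.0196 to 0.122 over 23 alternatives, of which 10 passed, the replicate block among them (adjusted p = 0.0259).

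Its paralog MOB1A (ENSG00000114978, GRCh37 chromosome 2, 74379655 to 74406025, minus strand) varied least of all members, with a coefficient of variation of 4.14% over the 12 libraries. WT libraries gave 44.1, 42.2 and 44.2 FPKM without GLUP and 43.0, 42.8 and 41.8 with it. Labelled TEAD4KO libraries gave 39.9, 38.5 and 42.9 FPKM without GLUP and 40.8, 41.6 and 40.2 with it. Labelled TEAD4KO untreated replicate 3, at 42.9 FPKM, was the 1 library of its genotype inside the WT range, and the difference was -0.080 ± 0.037 (SE, limma adjusted p = 0.14). Quantile normalization made it -0.16 with an adjusted p of 0.00476 in limma. The adaptor SAV1 (ENSG00000151748, GRCh37 chromosome 14, 51098776 to 51135024, minus strand) ranged from 19.0 to 25.8 FPKM, with both ends in untreated labelled TEAD4KO, and its difference was -0.10 ± 0.061 (SE, limma adjusted p = 0.26). These 2 libraries decided its value: without replicate 1 of that group it passed in limma (-0.15, adjusted p = 0.0439, and -0.26, adjusted p = 0.0354, in untreated cells), and without replicate 2 it was -0.053 (adjusted p = 0.515).

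Of the scaffolds, WWC1 (ENSG00000113645, GRCh37 chromosome 5, 167718650 to 167899308, plus strand) had WT values of 16.1, 13.6 and 14.6 FPKM without GLUP and 14.6, 15.7 and 15.3 with it. Its labelled TEAD4KO values were 14.8, 14.6 and 11.8 FPKM without GLUP and 12.7, 10.4 and 13.6 with it. The groups overlapped untreated and were separate with GLUP, where the difference was -0.30 ± 0.11 (SE, n = 3 per group; limma adjusted p = 0.109). Over both treatments it was -0.20 ± 0.076 (SE, limma adjusted p = 0.0735), and without labelled TEAD4KO untreated replicate 1 it passed (-0.24, adjusted p = 0.0327). NF2 (ENSG00000186575, GRCh37 chromosome 22, 29999545 to 30094587, plus strand), the merlin tumour suppressor, ranged from 14.3 to 16.9 FPKM, with a difference of -0.059 ± 0.047 (SE, limma adjusted p = 0.392).

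Upstream of LATS1 and LATS2, STK4 (ENSG00000101109, GRCh37 chromosome 20, 43595135 to 43708662, plus strand) ranged from 9.07 to 11.9 FPKM and STK3 (ENSG00000104375, chromosome 8) from 4.72 to 5.86 FPKM. The differences between labelled TEAD4KO and WT were -0.090 ± 0.053 for STK4 and 0.042 ± 0.058 for STK3 (SE, limma adjusted p = 0.237 and 0.637). STK3 was the 1 member with a higher mean in labelled TEAD4KO. TAOK1 (ENSG00000160551, GRCh37 chromosome 17, 27717381 to 27878921, plus strand), with the values given above, had a difference of -0.15 ± 0.098 (SE, limma adjusted p = 0.304), which was -0.050 without labelled TEAD4KO untreated replicate 2 and -0.21 without replicate 3 of that group.

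Counted together, 9 of the 10 members had lower fitted values in labelled TEAD4KO, in untreated cells, with GLUP and over both treatments. Of all 11225 genes tested, 4998, 5707 and 5381 were lower in these comparisons. Among the members 0, 0 and 1 passed in limma. At an unadjusted p under 0.05 in limma there were 0, 3 and 4, against 21.7%, 23.9% and 35.7% of all genes. The median log2 fold change of the members was -0.10 untreated, -0.080 with GLUP and -0.095 over both, against 0.023, -0.0039 and 0.0080 over all genes tested. Without labelled TEAD4KO untreated replicate 1 and labelled TEAD4KO GLUP replicate 16, a choice made on the data, 1, 2 and 4 members passed, where 19.9%, 27.8% and 41.5% of all genes did. Libraries with GLUP did not overlap, lower in labelled TEAD4KO, for LATS1, MOB1A, MOB1B and WWC1 (4 of 10, against 12.9% of all genes), and untreated libraries for LATS1 (1 of 10, against 7.47%).

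The members differ from most genes in transcript length, and length moved with the genotype label. The canonical transcripts of the members (GENCODE on GRCh37) run from 2833 bases (STK3) to 12643 bases (TAOK1), and all but STK3 and SAV1 are over 4.8 kb. Across 11077 genes the fold change of labelled TEAD4KO against WT over both treatments fell with length, with a Spearman rho of -0.533 as a description across genes. The median fold change was 0.17 for transcripts up to 1500 bases, 0.064 from 1500 to 3000, -0.014 from 3000 to 5000, -0.070 from 5000 to 7000 and -0.12 above 7000 bases. LATS1 (7362 bases) at -0.31, WWC1 (7136 bases) at -0.20 and MOB1B (6930 bases) at -0.18 were all below the median of their length class.

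The dependence on transcript length and GC was therefore removed from each library and the model fitted again. The median of the members over both treatments was then -0.022, against 0.0012 over all genes. LATS1 still fell, by 0.22 ± 0.057 (SE, limma adjusted p = 0.0215), in a comparison where 14.8% of all genes passed, 6.35% as lower. MOB1B was at -0.12 (adjusted p = 0.0754) and WWC1 at -0.10 (adjusted p = 0.319), TAOK1 went from -0.15 to -0.0011, and LATS2 and NF2 changed sign to 0.031 and 0.015. The trend of single libraries ran from a rho of 0.474 (WT GLUP replicate 16) to -0.568 (labelled TEAD4KO untreated replicate 2), and the latter was the library with the lowest value for 7 of the 10 members.

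**Figure D4:**
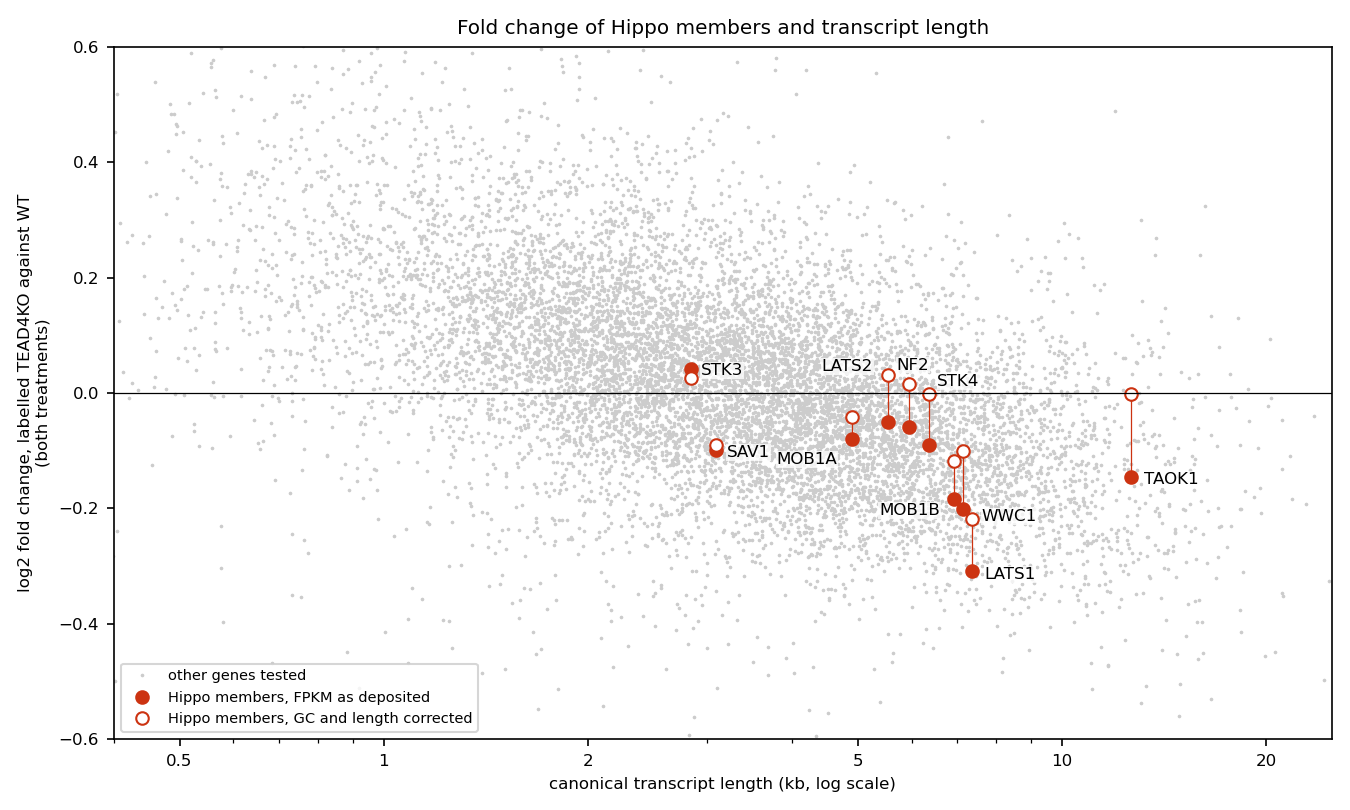
Log2 fold change of labelled TEAD4KO against WT over both treatments (vertical axis) against canonical transcript length in kb (horizontal axis, log scale), with all genes tested in grey and the 10 members in red, filled as deposited and open after GC and length correction; of 11077 genes, 98 lie outside the axes. Grey points slope downward with length, LATS1 moves from -0.31 to -0.22 and TAOK1 from -0.15 to -0.0011.

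Spread among members was uneven. Over the 12 libraries the coefficient of variation was 16.8% for LATS1, 13.9% for TAOK1, 11.96% for WWC1 and 10.3% for MOB1B, and between 4.14% and 7.93% for the other 6. These 4 are also the members with the longest transcripts. Within groups, deviations of the log2 values correlated across the 12 libraries with a median r of 0.306 over the 45 pairs of members (30 positive), the highest being 0.943 for MOB1B and TAOK1. After the correction the median was -0.126 (22 positive). Pairs among LATS2, MOB1B and TAOK1 remained positive, with r of 0.856 for LATS2 and MOB1B, 0.691 for MOB1B and TAOK1 and 0.644 for LATS2 and TAOK1. Other pairs were as strong, in both directions. These included -0.877 for LATS1 and MOB1A, -0.766 for LATS1 and NF2, -0.762 for WWC1 and TAOK1 and 0.720 for NF2 and WWC1. These points share their libraries and are given as a description.

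The genes whose pattern was most like that of LATS1 over the 12 libraries were STAT2 (Pearson r = 0.974), DOCK9 (0.973) and FREM2 (0.972). For LATS2 they were PLEKHA1 (0.904), ZCCHC2 (0.897) and LUZP1 (0.896). Both sets were picked as the highest of 11076 genes.

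Other regulators of the core were counted from lists of pathway genes. Among junction and polarity proteins, 17 of 19 were tested. Over both treatments 2 were higher and 3 lower in labelled TEAD4KO by limma, against 15.3% and 6.62% of all genes. Under median-ratio scaling or quantile normalization 2 were higher and 8 lower, where 22.6% and 23.9% of all genes passed in either direction. AMOTL2, an angiomotin that binds YAP at junctions, was at 15.3 to 16.8 FPKM in WT and at 17.1 to 19.7 FPKM in labelled TEAD4KO (0.21 ± 0.048, SE, adjusted p = 0.00694), and its paralog AMOT was at 6.92 to 8.34 against 5.44 to 6.85 FPKM (-0.24 ± 0.058, adjusted p = 0.00891). Before the GC and length correction, these paralogs thus differed in opposite directions. Their relative AMOTL1 ranged from 4.87 to 6.76 FPKM, with overlapping groups. FAT1, an atypical cadherin, was at 35.1 to 42.4 FPKM in WT and at 19.8 to 39.4 FPKM in labelled TEAD4KO (-0.45 ± 0.12, adjusted p = 0.0143). The phosphatase PTPN14 fell by 0.28 (adjusted p = 0.0253) and the polarity protein SCRIB rose by 0.21 (adjusted p = 0.0337). After the GC and length correction, in limma, AMOTL2 (0.26, adjusted p = 0.0168) and FAT1 (-0.28, adjusted p = 0.0212) passed and the other 3 did not (adjusted p = 0.0804, 0.079 and 0.259 for AMOT, PTPN14 and SCRIB), while PATJ passed as higher (0.20, adjusted p = 0.0265).

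In the strata, AMOTL2 alone passed in the junction list, with GLUP (0.30, limma adjusted p = 0.0119), where 5.84% of all genes passed. With the replicate block 2 junction genes passed there, against 9.48% of all genes. In untreated cells 0 passed in limma, with 5 of 17 at an unadjusted p under 0.05, against 21.7% of all genes. Among kinases that act beside the core, 16 of 18 were tested, and none passed in either stratum. Over both treatments STK25, a relative of STK3 and STK4, alone passed, as higher (0.22 ± 0.071, SE, limma adjusted p = 0.0439), where 15.3% of all genes passed as higher. After the correction 3 of the 16 passed there, against 14.8% of all genes. STRIPAK is a phosphatase complex that restrains STK3 and STK4. Its listed subunits and LIM-domain inhibitors of LATS1 and LATS2 were 17 genes, of which 0 passed in limma over both treatments, against 21.9% of all genes. At an unadjusted p under 0.05 there were 4, where 35.7% of all genes lay. STK24, STK25 and STK26 were counted with the kinases and not in this list. Of 5 tested RASSF and MOB relatives, MOB2 alone passed over both treatments, as higher (0.29 ± 0.073, SE, limma adjusted p = 0.0113), against 15.3% of all genes. It did not pass after the correction (limma adjusted p = 0.172). With GLUP over both genotypes none of these 4 lists had a gene that passed in limma, and 2, 1, 3 and 2 genes had an unadjusted p under 0.05, against 7.54% of all genes. After the correction 1 of them passed there, against 0.49% of all genes. It was AJUBA, a LIM-domain inhibitor of LATS1 and LATS2 named after its value was seen (-0.28, limma adjusted p = 0.00693).

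Downstream, among 7 effectors, TEAD1 (-0.26, limma adjusted p = 0.0105) and TEAD2 (-0.48, adjusted p = 0.000164) were lower and TEAD4 (0.20, adjusted p = 0.00482) higher in labelled TEAD4KO over both treatments. Of all genes, 6.62% passed as lower and 15.3% as higher in this comparison. After the correction TEAD4 was at 0.059 and did not pass (adjusted p = 0.347), while TEAD1 and TEAD2 did (adjusted p = 0.04 and 0.000153), and VGLL4 passed as higher (0.16, adjusted p = 0.0395). There 14.8% of all genes passed. VGLL4, a TEAD cofactor that competes with YAP, rose with GLUP over both genotypes (0.32, adjusted p = 0.0243), where 0.303% of all genes passed.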

How the data were processed

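The authors sequenced RNA of HGC-27 cells and deposited FPKM, 1 column per library and 1 row per Ensembl gene. FPKM counts fragments relative to transcript length and to the number mapped. The submitters' processing notes name HISAT2, Cufflinks, RSEM and hg19, with no versions. Depth and library strandedness are not given in the sources used here, so no counting interval is printed, and FPKM totals ran from 375361 to 423757. All 12 columns were matched by title, and 0 pairs were identical.

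From these values, log2(FPKM + 1) was fitted for the 11225 rows whose mean reached 1 FPKM, in 1 model of 4 groups with limma 3.58.1 in R 4.3.3 (eBayes with trend, two-sided). Contrasts over both treatments or genotypes took the other factor as a covariate. Benjamini-Hochberg adjustment was over all rows tested in each of 7 comparisons; a gene passed at an adjusted p under 0.05. The correction for GC content and transcript length used splines with 5 degrees of freedom in each library and lengths from GENCODE (98.7% of rows tested had one). Share tests permuted libraries within treatment for the genotype label and within genotype for GLUP. The model was also run on simulated data with noise drawn separately for each gene and library. No result given here rests on that run.

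Pairing by replicate number was checked through correlations of deviations from the group means. Same-numbered GLUP libraries had r of 0.106, 0.152 and 0.336 between genotypes. GLUP libraries of unlike number reached 0.134 (WT replicate 14 with labelled TEAD4KO replicate 15), so this is weak evidence of pairing. Same-numbered untreated libraries had -0.0569, 0.203 and -0.0149. The main model paired no libraries. The replicate block, which covers both untreated and GLUP libraries, was run as an alternative.

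The 10 members are always named. From other lists, up to 3 passing genes in each direction are named, and for LATS1 and LATS2 the 3 most correlated genes. PATJ and AJUBA were named after their values were seen. Members and lists were chosen with earlier results of these data known. The alternatives were other pseudocounts, filters, scalings, weights, libraries and the block. Sequences came from RefSeq.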

Additional observations from a re-analysis of the deposited data

How the results depend on the processing

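For GLUP in WT, in labelled TEAD4KO, over both genotypes and for the interaction, the count of members passing stayed at 0 in every alternative run. For labelled TEAD4KO against WT the main counts were 0 untreated, 0 with GLUP and 1 over both treatments. With GLUP the count was 1 under median-ratio scaling, quantile normalization and the replicate block (5.35%, 7.21% and 9.48% of all genes passed), and 2 under array weights (22.2%). Over both treatments it was 2 under median-ratio scaling and the replicate block (22.6% and 25.9% of all genes), 3 under array weights (30.5%), 4 under quantile normalization (23.9%), and 0 with a required fold over 2. Without the 2 labelled TEAD4KO libraries nearest WT, a setting added after seeing the data and chosen by the expression values, the counts were 1 untreated, 2 with GLUP and 4 over both (19.9%, 27.8% and 41.5% of all genes). Leaving out 1 library gave 0 to 1 untreated (1, SAV1, without labelled TEAD4KO untreated replicate 1, where 10.6% of all genes passed), 0 to 2 with GLUP (2 without labelled TEAD4KO GLUP replicate 16, against 17.4% of all genes, 1 without labelled TEAD4KO untreated replicate 1 or 2) and 1 to 4 over both (4 without labelled TEAD4KO untreated replicate 1, against 30% of all genes, 2 without labelled TEAD4KO untreated replicate 3, labelled TEAD4KO GLUP replicate 16 or WT untreated replicate 2). The order of members by mean held for 8 to 10 of 10 places, the 8 without any 1 of the 3 WT GLUP libraries, where MOB1B and LATS2 changed places.

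Of 713 alternative values of the 32 fold changes examined, 664 kept their direction and side of the threshold, 28 newly passed in the same direction, 0 lost a pass and 21 changed sign. LATS1 was not tested under the filter at a mean of 5 FPKM. Under the GC and length correction, GLUP over both genotypes became -0.0098 for LATS1 and -0.034 for MOB1B, and labelled TEAD4KO over both became 0.031 for LATS2 and 0.015 for NF2, also with the replicate block. Quantile normalization gave 0.014 for MOB1A with GLUP. Leaving out 1 library, the GLUP values over both genotypes ran from -0.043 to 0.0061 for STK3, -0.011 to 0.083 for SAV1, -0.013 to 0.063 for LATS1, -0.027 to 0.0072 for MOB1A, -0.034 to 0.048 for MOB1B and -0.090 to 0.0019 for WWC1, and for TAOK1 in labelled TEAD4KO from -0.0089 to 0.34. The cause was not tested. Untreated libraries share only a number; the block there left the count at 0, and beyond LATS1 with GLUP and MOB1B over both treatments it changed no call of a member. Depth is unknown, which limits what can be said of small differences.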

Other observations

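Some listed regulators were too low to test, and RASSF5 was matched to no row and was not analysed here. The crumbs protein CRB3 was at 0 to 0.426 FPKM, the kinase MARK1 at 0 to 0.057 FPKM, and RASSF6, a partner of STK3 and STK4, at 0 to 0.040 FPKM, each listed at 0 in at least 1 library. MAP4K1 was at 0.017 to 0.323 FPKM and the cadherin DCHS1 at 0.137 to 0.594 FPKM. RASSF2, RASSF4 and MOB3B were under 1 FPKM in all 12 libraries.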
